A study of Mus musculus with 4 samples.

Results

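The genes described here are 10 pluripotency genes of mouse embryonic stem (ES) cells, chosen by name from the per-library count tables. Of these, 3 encode core factors (Pou5f1, Sox2 and Sall4) and 7 are known for the formative and primed states (Otx2, Pou3f1, Fgf5, Lin28a, Lin28b, Utf1 and Foxd3). They are 10 of the 41543 gene symbols counted, and all 10 were among the 16112 genes with enough counts to be tested. The study sequenced polyadenylated RNA from 2 libraries of KAT6A knockout (KO) cells, made by CRISPR/Cas9 editing, and 2 libraries of Control cells with no edit named. Both groups were E14TG2a cells, a mouse ES cell line kept in serum with the cytokine LIF on gelatin. KAT6A is a histone acetyltransferase, and the series title concerns its recruitment to unmethylated CpG islands. The labels name neither the clone nor the position of the edit, and whether a group's libraries were separate cultures is not stated. The p-values therefore cover only the spread among these 4 libraries, which may be technical.

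OCT4 (encoded by Pou5f1) and SOX2 bind side by side at enhancers of pluripotent cells, and SALL4 is a zinc finger factor of the same network that recruits the NuRD deacetylase complex. As naive cells move towards the formative and primed epiblast states, OTX2 and OCT6 (encoded by Pou3f1) join OCT4 at new enhancers, and the ligand gene Fgf5 comes on. LIN28A and LIN28B bind precursors of the let-7 microRNAs and block their maturation, while UTF1 and FOXD3 are nuclear factors of pluripotent cells, a chromatin-associated protein and a forkhead factor.

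Because the series concerns CpG islands, the start regions of both LIN28 genes are shown beside those of Pou5f1 and Sox2. The sequences are the 250 bases before the first listed start of each gene in the RefSeq table (GRCm38.p6), written 5′ to 3′ on the gene's strand with each CG in capitals.
Pou5f1, chr17:35505782-35506031, plus strand: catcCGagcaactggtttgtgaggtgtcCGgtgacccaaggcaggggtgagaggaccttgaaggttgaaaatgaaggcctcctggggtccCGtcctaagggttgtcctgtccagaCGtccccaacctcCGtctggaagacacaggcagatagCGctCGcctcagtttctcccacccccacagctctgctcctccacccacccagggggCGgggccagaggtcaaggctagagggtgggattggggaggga
Sox2, chr3:34649745-34649994, plus strand: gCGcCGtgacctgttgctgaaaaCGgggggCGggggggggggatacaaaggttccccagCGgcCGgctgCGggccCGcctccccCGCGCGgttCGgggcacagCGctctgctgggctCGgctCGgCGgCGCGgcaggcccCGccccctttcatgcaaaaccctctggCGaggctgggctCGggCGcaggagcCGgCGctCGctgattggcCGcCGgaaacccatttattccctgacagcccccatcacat
Lin28a, chr4:134018817-134019066, minus strand: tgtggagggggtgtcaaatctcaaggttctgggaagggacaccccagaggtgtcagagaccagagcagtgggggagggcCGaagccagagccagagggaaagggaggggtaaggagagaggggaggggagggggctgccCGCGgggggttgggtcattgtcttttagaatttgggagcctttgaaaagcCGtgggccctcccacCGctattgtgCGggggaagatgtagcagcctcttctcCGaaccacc
Lin28b, chr10:45470202-45470451, minus strand: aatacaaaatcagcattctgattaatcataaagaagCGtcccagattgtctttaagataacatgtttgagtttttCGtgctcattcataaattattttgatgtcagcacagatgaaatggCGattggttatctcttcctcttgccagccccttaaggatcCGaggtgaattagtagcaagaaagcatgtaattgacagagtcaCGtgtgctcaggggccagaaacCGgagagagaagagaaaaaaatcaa
The Sox2 window held 27 CG pairs, the Pou5f1 window 8, the Lin28a window 7 and the Lin28b window 6, against a median of 6 over the 32851 windows of the table. The observed over expected CG ratio, which corrects for base composition, was 0.833 for Sox2, 0.631 for Lin28b, 0.336 for Lin28a and 0.334 for Pou5f1. The Lin28b window lies before the start of the protein-coding transcript, inside the gene as GENCODE M21 draws it, since noncoding transcripts of Lin28b start farther upstream, and those starts were not analysed here. It was AT-rich, at 39.2% GC, while the Sox2 window was at 72.0%. Of the 10 genes 8 had an entry, with 12 windows, and Sall4 and Pou3f1 had none. A ratio of 0.6 was reached by 6 of those windows, against 33.95% of all windows. The octamer ATGCAAAT, the letters that POU factors such as OCT4 bind, was searched on both strands and stood in 0 of the 12 windows and in 1.601% of all windows. These windows describe DNA sequence, and KAT6A binding and DNA methylation were not analysed here.

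The hairpins below show the target of the LIN28 proteins. In let-7 precursors LIN28 binds the letters GGAG, which are in capitals in the hairpins where they lie between the mature arms. In the mature strand the capitals mark the seed, bases 2 to 8, which pairs with target messenger RNAs.
let-7g hairpin, chr9:106178840-106178927, plus strand: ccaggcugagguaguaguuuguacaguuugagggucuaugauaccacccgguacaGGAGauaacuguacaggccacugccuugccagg
let-7b hairpin, chr15:85707319-85707403, plus strand: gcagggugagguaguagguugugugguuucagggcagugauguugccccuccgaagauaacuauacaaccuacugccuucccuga
let-7g mature 5p: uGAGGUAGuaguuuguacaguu
Of the 11 mouse let-7 hairpins in the RefSeq table, 9 had GGAG between the arms, as let-7g does, and 2 did not, let-7b and let-7c-2. All 11 shared the seed GAGGUAG. The letters GGAG stood anywhere in 44.5% of the 1005 mouse hairpins. Mature let-7 was not measured in these mRNA libraries, where each let-7 row had 0 to 2 counts.

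Libraries held 30185640 and 27494041 counts in KAT6A KO 1 and 2, against 35616899 and 37354623 in Control 1 and 2. Mitochondrially encoded genes took 1.80% and 1.30% of the counts in KO, against 2.24% and 2.25% in Control, and the part of this difference in the results below was not tested. Kat6a itself, at chr8:22859535-22943259 (GRCm38), was at 242 CPM (read counts scaled to library size) in KO 1 and at 86.4 CPM in KO 2, against 145 and 143 CPM in Control. Its RNA thus lay on either side of Control in the 2 libraries labelled KO, and since the place of the edit is unknown these values neither bear out nor contradict the labels, on which every direction below depends. Markers of ES cells were found in every library: all 10 were tested, 4 were higher in KO and 0 lower. Their summed level was 5730 and 5916 CPM in KO against 4498 and 4416 CPM in Control. Counts of higher and lower genes here rest on an edgeR adjusted p under 0.05. Of all tested genes 5.76% were higher and 8.57% lower by that measure. Summed markers of primitive endoderm, an early extraembryonic cell type, were at 50.1 and 112 CPM in KO against 234 and 236 CPM in Control, with 4 of 7 tested genes lower and 0 higher. Trophoblast markers summed to 68.0 and 74.1 CPM in KO against 86.4 and 91.1 CPM in Control, with 3 of 6 lower, and primitive streak markers to 13.9 and 19.8 CPM in KO against 22.4 and 25.1 CPM in Control. Of those 5 streak genes edgeR called 0, DESeq2 0 and limma-voom 1, and 1 had an unadjusted p under 0.05. That gene was Foxa2, also an endoderm factor gene, at 1.81 and 5.97 CPM in KO against 11.3 and 12.4 CPM in Control, while the median log2 fold change of the 5 was 0.19. Neuroectoderm markers summed to 105 and 93.8 CPM in KO against 70.9 and 79.1 CPM in Control. Most of each sum was Tubb3, at 91.1 and 79.0 CPM in KO against 50.2 and 58.0 CPM in Control. Among 4 tested Sox1 and Tubb3 were higher and Nes was lower. Nes was at 7.72 and 9.49 CPM in KO against 16.7 and 16.8 CPM in Control, and Sox1 at 3.19 and 2.55 against 1.35 and 1.46 CPM. Fibroblast markers summed to 25.7 and 22.5 CPM in KO against 19.6 and 21.003 CPM in Control, with Lum at 0 in every library. Of 4 tested fibroblast genes edgeR, DESeq2 and limma-voom called 0, and the 2 with an unadjusted p under 0.05 lay on opposite sides of 0, Thy1 at 0.46 and Fbn1 at -0.61, with a list median of 0.04. Thy1 was at 17.9 and 16.4 CPM in KO against 12.3 and 12.7 CPM in Control. In bulk RNA, fewer cells of a type and less RNA per cell cannot be told apart, and the part of these markers in the results below was not tested.

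Among the 10 genes, Sall4 was higher and Lin28b was lower in KAT6A KO cells, and 8 did not pass the test. A gene is called when its adjusted p over all 16112 tested genes is under 0.05 in edgeR's quasi-likelihood test. That is 20% of the 10, against 14.3% of all tested genes, or 5.76% called higher and 8.57% called lower. The log2 fold change, KO over Control, was above 0 for 8 of the 10, as for 50.4% of all tested genes, and its median was 0.26 over the 10 and 0.01 over all tested genes. The median over the 10 was 0.09 without Control 1, 0.11 without KO 2, 0.41 without Control 2 and 0.40 without KO 1. With a GC offset, a correction of each library for transcript GC content, it was 0.18, against 0.02 over all tested genes, and Foxd3 turned below 0. Without the offset, the median over tested genes ran from -0.22 in the lowest of 5 GC bins to 0.23 in the highest. In 7 of the 10 both KO libraries lay outside the Control range, 5 above and 2 below, as for 64.3% of all tested genes (31.5% above and 32.8% below).

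**Figure D1:**
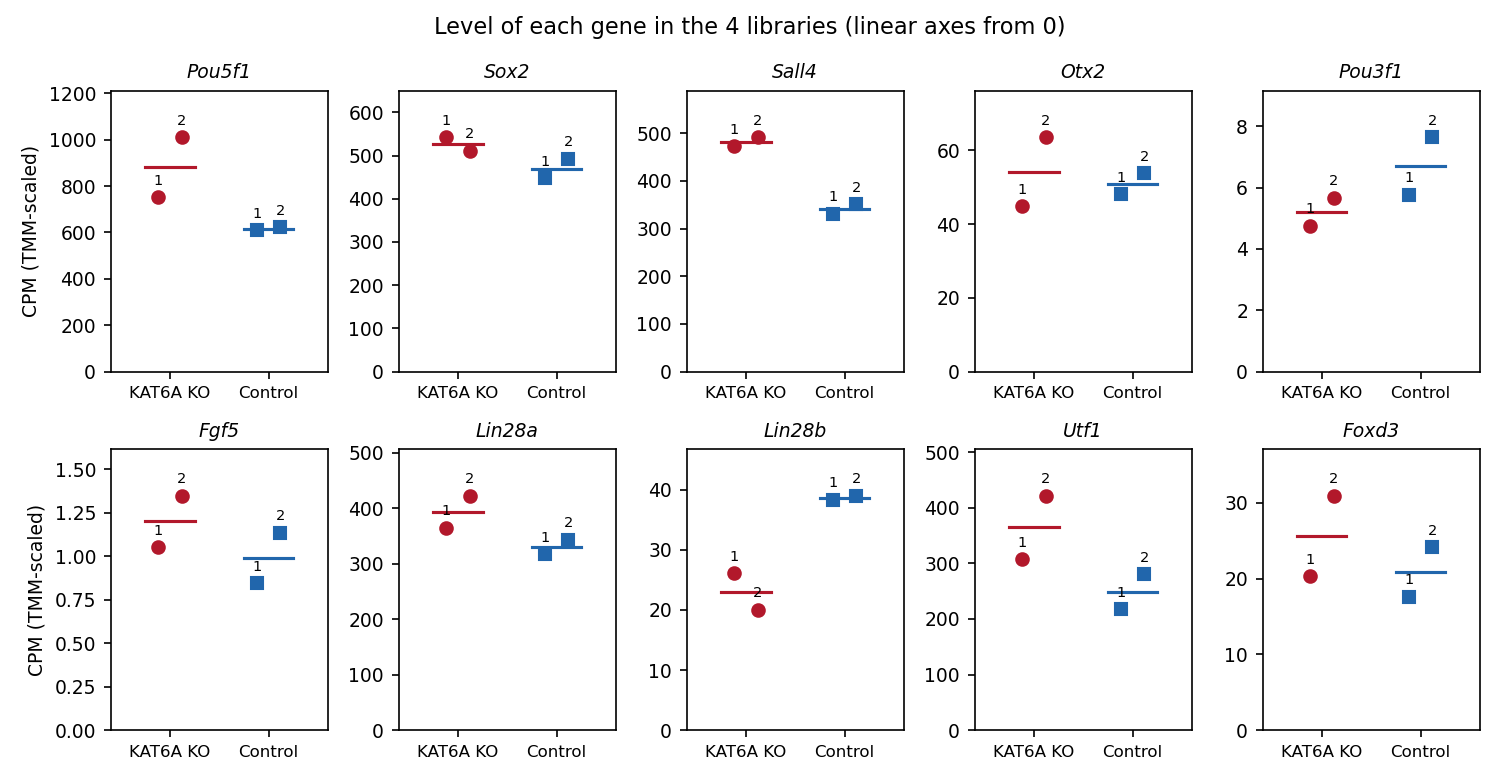
Level of each of the 10 genes in CPM (1 panel a gene, linear axes from 0) in every library, with KAT6A KO (circles) left of Control (squares), replicate numbers at the points and a line at each group mean. Sall4 stands at 472 and 491 CPM in KO against 332 and 351 CPM in Control, and Lin28b at 26.1 and 20.04 CPM in KO against 38.3 and 39.0 CPM in Control.

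Sall4, on the minus strand at chr2:168748332-168767943 (GRCm38, GENCODE M21), was the core gene that rose. It had 472 and 491 CPM in KO, against 332 and 351 CPM in Control. The groups did not overlap, and each pair of libraries lay close together. The means were 482 ± 13.5 CPM in KO and 341 ± 13.8 CPM in Control (SD, n = 2 each), a log2 fold change of 0.50 ± 0.08 (SE; edgeR adjusted p = 0.017). The call ended without Control 1, at 0.45 with an adjusted p of 0.224, and without Control 2, at 0.54 with an adjusted p of 0.108. In the authors' deposited table the log2 fold change of Sall4 was 0.48 with an adjusted p of 0.000577.

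Pou5f1, at chr17:35506018-35510772 on the plus strand, was the most abundant of the core genes. It had 752 and 1010 CPM in KO, against 610 and 622 CPM in Control. Both KO libraries lay above both Control libraries, and the KO libraries differed more from each other than the Control libraries did. The log2 fold change was 0.52 ± 0.14 (SE) and did not pass the test (edgeR adjusted p = 0.0586). It was 0.28 without KO 2 and 0.71 without KO 1. The Pou5f1 transcript is 57.6% GC, and with a GC offset, a correction of each library for transcript GC content, it was at 0.34 (edgeR adjusted p = 0.0881). In the authors' deposited table Pou5f1 had a log2 fold change of 0.49 with an adjusted p of 0.00611, and DESeq2 run on the counts gave 0.52 with an adjusted p of 0.00824.

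Sox2 is a single-exon gene at chr3:34650405-34652461 on the plus strand, within the noncoding gene Sox2ot, with which it shares no exon bases. Its level was 542 and 511 CPM in KO, against 447 and 492 CPM in Control. KO lay above Control by a narrow margin, and the log2 fold change of 0.16 ± 0.09 (SE) did not pass the test (edgeR adjusted p = 0.243). Summed over the core genes the level was 1766 and 2012 CPM in KO, against 1388 and 1465 CPM in Control. The KO sums both lay above the Control sums. Summed over the 7 formative and primed genes the level was 769 and 966 CPM in KO, against 646 and 749 CPM in Control. Most of each sum was Lin28a and Utf1, so it does not describe the set as a whole. Otx2, Foxd3 and Fgf5 overlapped Control, and Pou3f1 and Lin28b lay below it.

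Among the formative genes Lin28b fell. It lies on the minus strand at chr10:45376620-45486395, and its count was 793 and 551 in KO, against 1362 and 1443 in Control. Its level was 26.1 and 20.04 CPM in KO, against 38.3 and 39.0 CPM in Control. The Control libraries lay close together, and both KO libraries lay below them. The means were 23.0 ± 4.25 CPM in KO and 38.6 ± 0.448 CPM in Control (SD, n = 2 each), a log2 fold change of -0.74 ± 0.14 (SE; edgeR adjusted p = 0.0244). Over the 15 alternative settings, all refits of the same libraries, the log2 fold change of Lin28b ran from -0.95 to -0.50. Lin28b was called in every setting that kept all libraries. Its transcript GC content is 40.6%, in the lowest of 5 equal bins of tested genes, where the median log2 fold change was -0.22, and with the GC offset Lin28b was at -0.50 (edgeR adjusted p = 0.0232).

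Lin28a, the LIN28 gene with the higher level in every library, lies at chr4:134003330-134018841 on the minus strand. It had 365 and 423 CPM in KO, against 318 and 343 CPM in Control. Both KO libraries were above Control, and the log2 fold change of 0.25 ± 0.10 (SE) did not pass the test (edgeR adjusted p = 0.138). Per kilobase of exon, the ratio of Lin28b to Lin28a was 0.0315 and 0.0209 in KO, against 0.0532 and 0.0501 in Control. The mean ratio was 0.0262 ± 0.00748 in KO and 0.0516 ± 0.00221 in Control (SD, n = 2 each), or 0.507 times the Control ratio. This ratio was taken without the GC offset, with which the log2 fold change was -0.50 for Lin28b and 0.25 for Lin28a. An exact two-sided permutation test gave p = 0.333, the smallest that 2 against 2 libraries allow. Lin28b made up 6.67% and 4.53% of the counts of the LIN28 pair in KO, against 10.8% and 10.2% in Control.

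**Figure D2:**
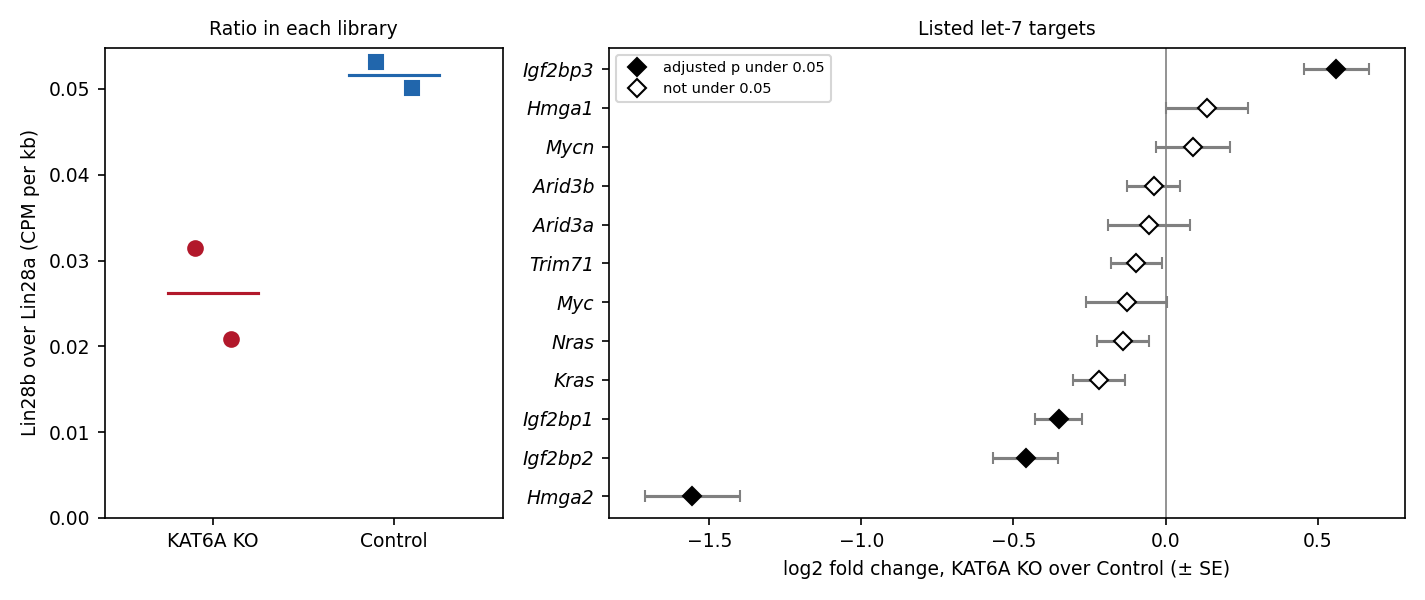
Left, the ratio of Lin28b to Lin28a (CPM per kb) in each library, KAT6A KO left of Control, with a line at each group mean; right, the edgeR log2 fold change, KAT6A KO over Control, of the 12 listed let-7 targets with its SE. The ratio is 0.0315 and 0.0209 in KO against 0.0532 and 0.0501 in Control, and Hmga2, at -1.56, lies farthest from 0.

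Of the transcription factor genes of the formative state, Otx2, Pou3f1 and Foxd3, none was called. Otx2, a homeodomain factor gene at chr14:48657677-48673819 on the minus strand, had 44.8 and 63.5 CPM in KO, against 48.0 and 53.7 CPM in Control. The groups overlapped, at a log2 fold change of 0.09 ± 0.17 (SE; edgeR adjusted p = 0.747), and without KO 2 it was -0.19. Pou3f1, at chr4:124656807-124660655 on the plus strand, had 4.76 and 5.67 CPM in KO, against 5.77 and 7.64 CPM in Control. The KO libraries lay below the Control libraries, and the log2 fold change of -0.36 ± 0.21 (SE) did not pass the test (edgeR adjusted p = 0.262). With the GC offset Pou3f1 was at -0.71 (edgeR adjusted p = 0.0428), and its transcript GC content is 63.9%. Foxd3, at chr4:99656299-99658622 on the plus strand, had 20.3 and 30.9 CPM in KO, against 17.6 and 24.1 CPM in Control. The groups overlapped, at 0.30 ± 0.23 (SE; edgeR adjusted p = 0.413), and with the GC offset the sign turned, to -0.09.

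Utf1, at chr7:139943789-139945112 on the plus strand, had 308 and 422 CPM in KO, against 218 and 281 CPM in Control. Both KO libraries were above Control, and the log2 fold change of 0.55 ± 0.18 (SE) did not pass the test (edgeR adjusted p = 0.0879). The authors' deposited table lists Utf1 at 0.51 with an adjusted p of 0.0119. Its transcript GC content is 63.5%, and with the GC offset its log2 fold change was 0.21 (edgeR adjusted p = 0.282). Fgf5, at chr5:98254184-98277030 on the plus strand, was scarce, with 32 and 37 counts in KO, against 30 and 42 counts in Control. Its level of 1.05 and 1.35 CPM in KO overlapped 0.844 and 1.13 CPM in Control. At this depth no difference in Fgf5 was detectable, with a log2 fold change of 0.27 ± 0.30 (SE; edgeR adjusted p = 0.562).

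**Figure D3:**
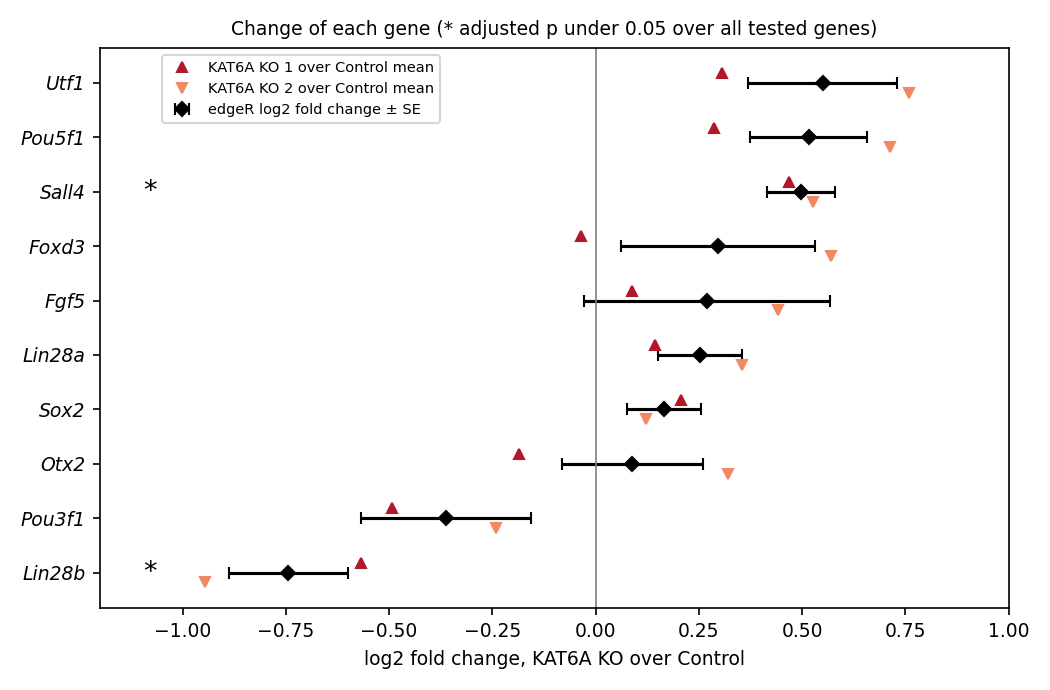
Log2 fold change, KAT6A KO over Control, of each gene with its SE in edgeR (diamonds), and the log2 ratio of each KO library to the Control mean (triangles). Sall4 at 0.50 and Lin28b at -0.74 carry the stars for an adjusted p under 0.05, and Otx2 and Foxd3 have a KO library on each side of 0.

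The genes stood in nearly the same order in both groups when their levels were set per kilobase of exon. In KO the order was Pou5f1 (392 ± 81.2 CPM per kb), Utf1 (297 ± 65.6), Sox2 (256 ± 10.7), Lin28a (98.5 ± 10.2), Sall4 (87.0 ± 2.43), Otx2 (12.8 ± 3.14), Foxd3 (11.03 ± 3.22), Lin28b (2.54 ± 0.469), Pou3f1 (1.36 ± 0.167) and Fgf5 (0.479 ± 0.0833; SD, n = 2 each). In Control Sox2 stood above Utf1, at 228 ± 15.5 against 203 ± 36.3 CPM per kb (SD, n = 2 each), with overlapping libraries, and the other 8 kept their places. Libraries of neighbours in the order overlapped in KO for Pou5f1 with Utf1, Utf1 with Sox2, and Otx2 with Foxd3. In Control they overlapped only for Sox2 with Utf1. Exon lengths come from GENCODE M21, and the annotation used for the deposited counts was not given in the sources used here.

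**Figure D4:**
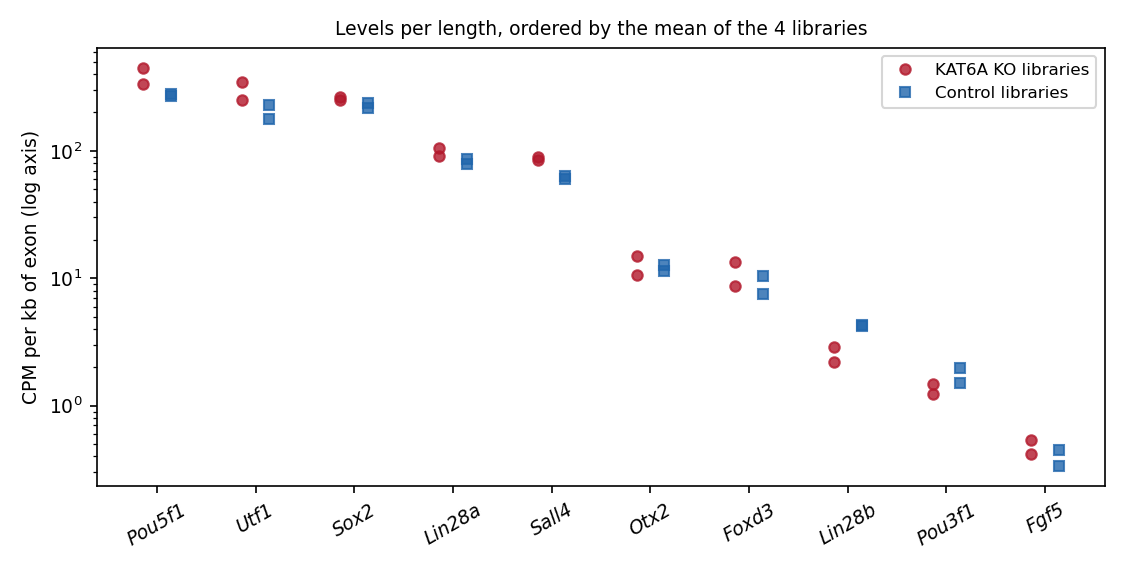
Level of each gene in CPM per kb of exon (log axis) in every library, KAT6A KO (circles) left of Control (squares), with genes in the order of their mean over the 4 libraries. Pou5f1, Sox2 and Utf1 lie between 203 and 392 CPM per kb in their group means, and Fgf5 lies below 1 CPM per kb in both groups.

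The 10 genes also varied within groups. KO 2 exceeded KO 1 in 8 of the 10, as in 49.6% of all tested genes, and Control 2 exceeded Control 1 in 10 of the 10, as in 49.5%. The median size of the log2 difference between replicates was 0.37 in KO over the 10 genes, against 0.23 over all tested genes, and 0.15 in Control, against 0.08. Foxd3 differed most in KO, with a log2 ratio of KO 2 to KO 1 of 0.60, and Otx2 followed at 0.50. Sall4 differed little, at 0.06 in KO and 0.08 in Control. Lin28b was at -0.38 in KO and 0.02 in Control, so KO 2 was the lower of its KO libraries. Pou5f1 was at 0.43 in KO and 0.03 in Control. The KO libraries also differed by transcript GC content over all tested genes. In the highest of 5 GC bins the median log2 ratio to the Control mean was 0.14 in KO 1 and 0.29 in KO 2. In the lowest bin it was -0.12 in KO 1 and -0.34 in KO 2. The part of this in the differences of the 10 genes was not tested.

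**Figure D5:**
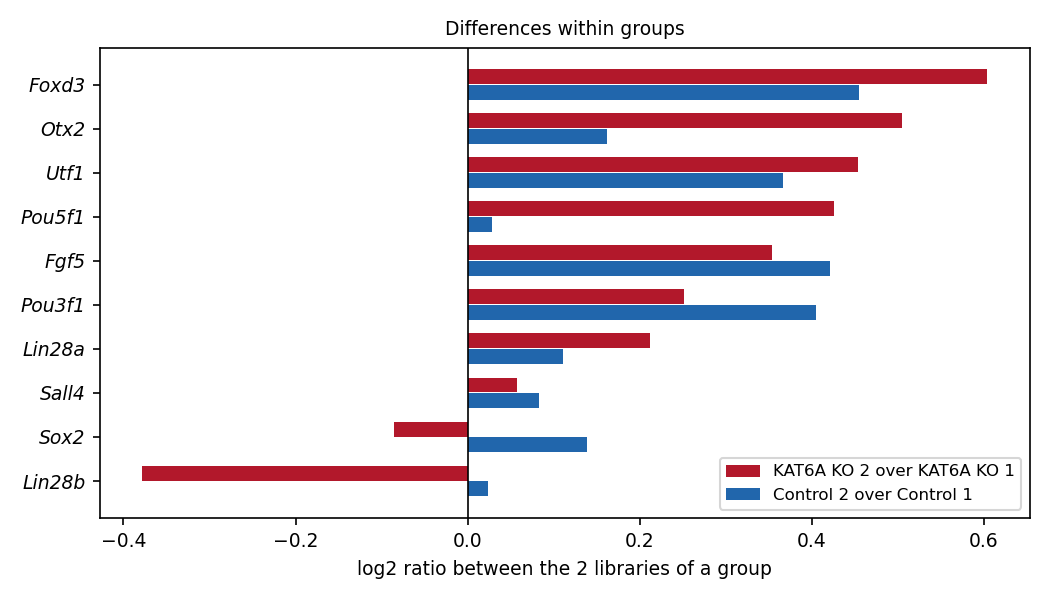
Log2 ratio of replicate 2 to replicate 1 for each of the 10 genes, with the bar for KAT6A KO above the bar for Control. Of the KO ratios 8 of 10 are above 0, from Foxd3 at 0.60 down to Lin28b at -0.38, and of the Control ratios 10 of 10 are.

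Beside the members, lists of related genes were counted. Their medians are set only beside the median of 0.01 over all tested genes. Their counts stand beside 5.76% of all tested genes called higher and 8.57% called lower, and the lists were not tested as sets. Of 15 naive pluripotency genes, 3 rose (Esrrb, Tbx3 and Tfcp2l1) and 1 fell (Dppa3), with a median of 0.11, or 0.22 with the GC offset. Esrrb, Tbx3 and Tfcp2l1 are also among the ES cell markers counted above, so their rise is not a separate result. Esrrb, a nuclear receptor of naive cells, had 1435 and 1460 CPM in KO, against 977 and 980 CPM in Control, a log2 fold change of 0.56 (edgeR adjusted p = 0.0129). Tfcp2l1 was at 0.60 (edgeR adjusted p = 0.032), and Tbx3 at 0.46 (edgeR adjusted p = 0.0192). Dppa3, which encodes a maternal factor of early embryos and germ cells, had 1.68 and 1.56 CPM in KO, against 9.37 and 9.21 CPM in Control, a log2 fold change of -2.52 (edgeR adjusted p = 0.00498). Nanog, a homeodomain factor gene, had 496 and 415 CPM in KO, against 478 and 476 CPM in Control, so the groups overlapped. The calls of Esrrb and Tbx3 ended without either Control library, with adjusted p of 0.108 to 0.223, and the Tfcp2l1 call without Control 2, at 0.119, and when genes on chromosome 11 were left out of the fit, at 0.0528.

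Of 17 other formative and primed genes 1 rose and 0 fell, with a median of 0.05, which was -0.11 with the GC offset and ran from -0.24 without KO 2 to 0.26 without KO 1. That gene was Etv5, an ETS factor gene downstream of FGF signalling, with a log2 fold change of 0.37 (edgeR adjusted p = 0.0387); it was not called without Control 1 (0.471), without Control 2 (0.248) or without chromosome 11 genes (0.0637). The list of 4 genes with known OCT4-SOX2 enhancers was Fgf4, Nanog, Fbxo15 and Lefty1, and left out the 10 members described above. Of these 4 edgeR, DESeq2 and limma-voom called 0, with 0 at an unadjusted p under 0.05. Their median was 0.01, and Nanog was the most abundant. Of 13 NuRD subunit genes 1 rose, Mta2, a core subunit, at 0.39 (edgeR adjusted p = 0.0351), and the list median was 0.18; the Mta2 call ended without Control 1 (0.387), without Control 2 (0.247) and without chromosome 11 genes (0.0555). Of 17 FGF ligand and receptor genes 2 rose and 2 fell, with a median of -0.10, which was -0.24 with the GC offset and turned to 0.07 without Control 2 and 0.08 without KO 1. The ligand gene Fgf1 was at 1.36 (edgeR adjusted p = 0.0172), the receptor gene Fgfr1 at 0.36 (0.0493), and Fgf10 and Fgf13 at -1.21 (0.0454) and -1.22 (0.0416). The Fgfr1 and Fgf10 calls ended without either Control library, with the GC offset and without chromosome 11 genes, at edgeR adjusted p from 0.0581 to 0.399, the Fgfr1 call also with a minimum of 1 CPM in 2 libraries (0.0508), and the Fgf13 call ended without Control 2 (0.0858) and without chromosome 11 genes (0.0546).

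Of 19 tested relatives of the members, from the POU, SOX, SALL, OTX and FOXD families, 5 rose and 0 fell, with a median of -0.02, or 0.35 over those with at least 1 CPM in 2 libraries, 0.11 without Control 1 and 0.28 without KO 2. Sall1, a paralog of Sall4, had 342 and 355 CPM in KO, against 244 and 263 CPM in Control, at a log2 fold change of 0.46 (edgeR adjusted p = 0.021). Sall3 had 13.7 and 15.9 CPM in KO, against 5.49 and 6.64 CPM in Control, at 1.29 (edgeR adjusted p = 0.0108). Sall2 had 5.26 and 5.13 CPM in KO, against 3.85 and 4.32 CPM in Control, and did not pass the test. Pou2f2, a POU factor gene, was at 1.25 (edgeR adjusted p = 0.0152), and the SOX genes Sox1 and Sox12 were at 1.03 (0.0358) and 0.67 (0.0166). The Sall1 call ended without either Control library (0.298 and 0.133), that of Sox12 without Control 1 (0.0867; with the GC offset its log2 fold change was 0.43), and that of Sox1 without either Control library, with the GC offset and without chromosome 11 genes, at 0.0537 to 0.238.

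The 5 genes whose log2 CPM moved most like Sall4 over the 4 libraries, by the Euclidean distance between values centred on each gene's mean, were Pex6 (0.036), Rxra (0.037), Ankrd24 (0.037), Bdh2 (0.038) and Sall1 (0.041). Pex6, a peroxisome assembly gene, had 48.8 and 52.2 CPM in KO, against 34.1 and 36.6 CPM in Control. Rxra, a nuclear receptor gene, had 51.3 and 51.8 CPM in KO, against 34.9 and 37.3 CPM in Control. With 4 libraries such a distance rests on few points.

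Of 10 tested genes that make or degrade let-7, edgeR, DESeq2 and limma-voom called 0, with 1 at an unadjusted p under 0.05 and a median of 0.04. The most abundant was Drosha, the nuclease gene whose product cuts the primary transcript, at 233 and 271 CPM in KO, against 239 and 250.3 CPM in Control. Of 12 let-7 targets 3 fell and 1 rose, with a median of -0.11. Hmga2, a chromatin architecture gene, had 8.64 and 11.3 CPM in KO, against 28.5 and 29.99 CPM in Control. Its log2 fold change was -1.56 (edgeR adjusted p = 0.00696), and it was called in every setting that kept all libraries. The genes of the RNA-binding IGF2BP family went both ways, with Igf2bp1 at -0.35 (0.0342), Igf2bp2 at -0.46 (0.0391) and Igf2bp3 at 0.56 (0.0229). The calls of Igf2bp1, Igf2bp2 and Igf2bp3 ended without either Control library, at edgeR adjusted p from 0.088 to 0.41.

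For 5 of the 10 genes (Pou5f1, Sall4, Otx2, Pou3f1 and Lin28a) GENCODE M21 has a gene on the opposite strand that shares exon bases, and the rows of those opposite-strand genes held 0 to 26 counts per library. Otx2 and Foxd3 also share exon bases with a gene on the same strand (Gm49154 and Gm23366), and reads there cannot be told apart by strand. Whether reads were counted by strand was not given in the sources used here.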

How the data were processed

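Messenger RNA libraries were made with a kit that keeps strand, per the labels' protocols (TruSeq Stranded mRNA). The authors deposited whole-number counts per gene symbol for each library, made with featureCounts per the submitters' processing notes; how reads were aligned, to which build and annotation, and with which strand setting was not given in the sources used here. They also deposited counts divided by 1 factor per library (a signal), and a results table without a header, whose columns were read from their values and order: mean normalized count (signal), log2 fold change, standard error, a Wald statistic (score) and p-values, with DESeq2 named in the same notes. No sample column was left unmatched (0).

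The counts were tested with edgeR 4.0.16 in R 4.3.3 (filterByExpr by group, TMM, robust quasi-likelihood test of group, Benjamini-Hochberg adjustment over 16112 genes, threshold 0.05). Limma 3.58.1 and DESeq2 1.42.0 were alternatives, as were other scalings and filters, a block for the replicate number, a GC offset (lowess span 0.3) and each library left out; leaving out chromosome 11 genes was added after seeing the data. With 1 library left out, the lone library was taken to have the spread of the other pair. Other steps used Python 3.11.15, pandas 2.3.3 for joins, scipy 1.17.1 for the permutation test, and matplotlib 3.10.9 for drawing. Positions, exon lengths and GC content came from GENCODE M21, which held 97.3% of the symbols. The fit was tested on simulated data with 15872 genes: of simulated log2 changes of 0.5 it called 4 of 67, of 1 it called 48 of 65, and of 2 it called 57 of 65, with 9 false calls among 118. The members and lists were chosen with earlier results of these data known. Named genes were the 10 members, Kat6a, Nanog, each list's called genes where there were 5 or fewer (otherwise the 2 largest per direction; where none was called, the most abundant) and the 5 genes most like the member with the smallest p; Sall2 and marker genes were named after their values were seen.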

Additional observations from a re-analysis of the deposited data

How the results depend on the processing

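Over all tested genes 928 were called higher and 1381 lower in KAT6A KO, and with the replicate block the counts were 1613 and 2147. Without chromosome 11 genes, which hold none of the 10 genes, 8.22% of 14790 tested genes were called, against 14.3% of 16112. The counts were then 519 higher and 697 lower. With each library left out they ran from 254 to 4020 higher and from 648 to 4400 lower, the highest without a KO library, where the spread comes from the Control pair alone. Over all tested genes, same-numbered libraries deviated together from their group means by a correlation of 0.09. With 2 libraries a group the 2 pairs mirror each other, so this is 1 value and cannot decide whether they are paired. Among the 10 genes replicate 2 exceeded replicate 1 in 8 in KO and in 10 in Control. The main fit took the libraries as unpaired. Among settings that kept all libraries, Pou5f1 passed the threshold with upper quartile scaling (0.55), no filter (0.50), DESeq2 (0.52) and the replicate block (0.50). Among the same settings Utf1 passed it with DESeq2 (0.56) and the replicate block (0.54). Pou3f1 passed it there with the GC offset (-0.71), also with the block (-0.70). Foxd3 turned in sign with the GC offset (-0.089), also with the block (-0.093), and without KO 2 (-0.041), and Otx2 without KO 2 (-0.19). The cause of these changes was not tested. Among the 10 genes the number called higher was 1, against 2 with upper quartile scaling or no filter, 3 with DESeq2 or the replicate block, and 0 to 7 with each library left out; the number called lower was 1, against 2 with the GC offset and 1 to 3 with each library left out. Over the 10 genes and the 8 related lists, 54 of 135 counts called higher and 23 of 135 called lower moved by over 1.5 times, and 19 of 135 medians by at least 0.1. With each library left out, log2 fold changes ran from 0.28 to 0.71 for Pou5f1, 0.091 to 0.24 for Sox2, 0.45 to 0.54 for Sall4, -0.19 to 0.32 for Otx2, -0.56 to -0.14 for Pou3f1, 0.07 to 0.50 for Fgf5, 0.14 to 0.35 for Lin28a, -0.95 to -0.57 for Lin28b, 0.30 to 0.76 for Utf1 and -0.041 to 0.57 for Foxd3. Depth limits Fgf5 and Pou3f1 most, at 30 to 283 counts.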
